A study of Mus musculus with 4 samples.

Results

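The genes described here are imprinted genes that act on growth, measured in the epithelium of mouse lung tumors by single-cell RNA sequencing. The members were Meg3, Dlk1, Rian, H19, Igf2, Cdkn1c, Peg3 and Plagl1. They were chosen from results of these same data, because Meg3 and Dlk1 led the alveolar type II-like (ATII-like) cells, so their levels are given as a description without a test. Of the 8 members, 7 had a row among the 31055 features of the deposited matrix, and Rian had none.

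All mice carried Lkb1XTR/XTR, in which Cre inverts a gene trap that stops Lkb1 (gene symbol Stk11). They also carried a Rosa26 allele from which Cre activates tdTomato. Tumors were started with Lenti-Cre and collected after 16 weeks, and all mice received tamoxifen, in doses of 4 mg, over the final 2 weeks. At Rosa26 the 2 Restored mice were labelled Rosa26LSL-tdTomato/FLPo-ERT2, and tamoxifen lets FLPo-ERT2 remove the trap. The 2 Non-Restored mice were labelled Rosa26LSL-tdTomato and lacked that recombinase. All were labelled female, and by the study's methods tumors were started in young adult mice. Viable cells of dissected tumors were sorted on DAPI alone, so every cell type of the tumor could be present. A single matrix pooled the 4 mice, with 20351 cells and 58624795 unique molecular identifiers (UMIs, counted molecules), and no file used here ties a cell to a mouse. The matrix was therefore treated as 1 sample: Restored and Non-Restored cells were not compared, no p-values are given, spread between mice is not known, and cell barcodes shared by libraries could not be counted. The 95% intervals are exact (Poisson for levels, Clopper-Pearson for shares, conditional binomial for ratios) and cover counting error only.

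An imprinted gene is expressed from the maternal or the paternal copy and is silent on the other. Many imprinted genes act on fetal growth and are low in most adult tissues. Meg3 and Rian are noncoding RNAs made from the maternal copy of a cluster that also holds Dlk1, which is made from the paternal copy. H19 and Igf2 are a similar pair in another cluster, near Cdkn1c. The counts do not tell the parental copies apart.

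Cells were placed in classes by marker genes, none of which was a member. The gate named 16039 of 19488 filtered cells, and 890 of them (4.57% of filtered cells) were epithelial-like, with a median of 3762 UMIs; class medians ran from 921 UMIs in neutrophil-like to 5480 in alveolar macrophage-like cells. All 13 epithelial markers were detected in them and summed to 9211 CPM, where CPM stands for UMIs of the gene or list in every 1000000 UMIs of that class. Markers of other lineages were low in the same cells, with the summed stromal list at 8.86 CPM, the T or NK list at 40.4 CPM, the interstitial macrophage list at 74.5 CPM, the endothelial list at 81.4 CPM, the neutrophil list at 87.8 CPM and the monocyte or dendritic list, the highest, at 101 CPM. The gate was set on these same lists, so their sums describe the gate and are no separate check of identity. TdTomato was at 5702 CPM, with a UMI in 874 of the 890 cells, and the only other class above 1000 CPM was the alveolar macrophage-like class, at 2648 CPM. Stk11 was at 22.1 CPM in epithelial-like cells and 20.6 CPM in the other gated cells, a reading that mixes Restored and Non-Restored cells.

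The sequences before the starts of Meg3, Dlk1 and Peg3 are shown because the first pair was high in the same cells while Peg3 was not seen in them. RefSeq promoters on GRCm38.p6 were at hand for 6 members, with 10 starts among them. Each line gives the 250 bases before the start, 5′ to 3′ on the gene's strand, with matches on either strand to TGACGTCA (the cAMP response element, which reads the same on both strands), TATAAA or CCAAT in capitals.
Meg3, chr12:109540746-109540995, plus strand: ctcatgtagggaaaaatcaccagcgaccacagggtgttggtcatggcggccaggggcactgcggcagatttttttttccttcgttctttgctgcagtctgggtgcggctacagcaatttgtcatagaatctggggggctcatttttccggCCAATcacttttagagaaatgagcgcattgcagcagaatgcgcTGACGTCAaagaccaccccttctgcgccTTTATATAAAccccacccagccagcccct
Dlk1, chr12:109452573-109452822, plus strand: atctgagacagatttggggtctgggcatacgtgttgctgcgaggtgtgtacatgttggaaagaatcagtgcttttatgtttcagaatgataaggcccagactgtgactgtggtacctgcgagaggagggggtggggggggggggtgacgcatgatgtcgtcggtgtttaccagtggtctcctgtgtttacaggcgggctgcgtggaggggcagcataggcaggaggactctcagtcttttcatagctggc
Peg3, chr7:6730420-6730669, minus strand: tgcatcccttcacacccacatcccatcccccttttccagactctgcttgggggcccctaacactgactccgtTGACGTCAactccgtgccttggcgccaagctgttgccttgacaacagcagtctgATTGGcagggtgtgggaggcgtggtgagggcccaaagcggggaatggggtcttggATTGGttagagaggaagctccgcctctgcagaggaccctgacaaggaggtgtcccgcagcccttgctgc
RefSeq gave Meg3 a further start, whose window (chr12:109545148-109545397) held none of these motifs and is not shown. TGACGTCA stood 57 bases before the Meg3 start shown and 178 bases before the Peg3 start. It was found in 1.55% of 32851 promoter windows of this length, TATAAA in 12.4% and CCAAT in 33.8%. The Meg3 window shown held TATAAA in 2 overlapping matches on opposite strands. The Dlk1 window held none of these motifs. A match is a description of these letters and not a binding site.

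Meg3, a maternally expressed long noncoding RNA (chr12:109541001-109571726, plus strand, mm10), was found in the epithelium far above nearly every other class. In epithelial-like cells 3531 UMIs in 341 cells gave 977 CPM (945.5 to 1010). The other gated cells held 113 UMIs, or 2.70 CPM (2.23 to 3.25), and the log2 ratio was 8.50 (8.23 to 8.78). Stromal-like cells came next at 119 CPM (89.8 to 156), from 54 UMIs in 19 of 127 cells, and the epithelial level was 8.18-fold higher (6.26 to 10.9). Interstitial macrophage-like cells had 5.22 CPM, but 2 cells with 25 UMIs each held 50 of their 51 UMIs. Those cells had epithelial marker scores of 0.339 and 0.297. Without them the class was at 0.103 CPM. In each of the remaining classes Meg3 was below 1 CPM or had no UMI. Among all features, Meg3 ranked 136th by CPM in epithelial-like cells.

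Dlk1, a paternally expressed membrane protein related to the Notch ligands (chr12:109452823-109463336, plus strand), was seen almost entirely in the epithelium. It had 1360 UMIs in 163 epithelial-like cells, or 376 CPM (357 to 397), against 18 UMIs and 0.431 CPM (0.255 to 0.681) in the other gated cells. The log2 ratio was 9.77 (9.11 to 10.5). Unlike Meg3, Dlk1 had no UMI in stromal-like cells, which allows up to 8.16 CPM by the exact interval.

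Cdkn1c, which encodes the cyclin-dependent kinase inhibitor p57 (chr7:143458339-143461050, minus strand), was lower and more widely shared. In the epithelium it reached 59.8 CPM (52.1 to 68.3), the other gated cells 4.45 CPM (3.83 to 5.14), a log2 ratio of 3.75 (3.46 to 4.04). Endothelial-like cells had 19.95 CPM (15.7 to 24.97) and stromal-like cells 28.8 CPM (15.3 to 49.2), which the epithelial level exceeded by 2.997-fold (2.30 to 3.95) and 2.08-fold (1.19 to 3.97). The 23 ciliated or club-like cells had 88.4 CPM (45.7 to 154), and the interval of the epithelial over the ciliated or club-like level, 0.677-fold (0.379 to 1.33), includes no difference.

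Plagl1, a zinc finger transcription factor (chr10:13060504-13131694, plus strand), was close to the limit of detection. Each of 27 epithelial-like cells held 1 UMI, giving 7.47 CPM (4.93 to 10.9), while the other gated cells had 1.46 CPM (1.12 to 1.87), a log2 ratio of 2.36 (1.65 to 3.03). In stromal-like cells it was at 15.5 CPM (6.23 to 31.9), and the intervals of both classes overlap.

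Peg3, a zinc finger protein made from the paternal copy (chr7:6703892-6730431, minus strand), was not detected in the epithelium. None of the 890 epithelial-like cells had a UMI, which allows up to 1.02 CPM by the exact interval. Endothelial-like cells had 15.8 CPM (12.0 to 20.3) and stromal-like cells 19.9 CPM (9.10 to 37.8). With 3 UMIs set for the epithelium, where none was counted, the endothelial-like level was 18.96-fold higher. The upper limit of 1.02 CPM would give a smaller fold. The 72 Peg3 UMIs of gated cells were in the endothelial-like class (60), the stromal-like class (9) and, for the remainder, T or NK-like and alveolar macrophage-like cells.

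H19 (chr7:142575529-142578143, minus strand), a noncoding RNA, and Igf2 (chr7:142650766-142666816, minus strand), a growth factor that signals through Igf1r and Insr, were close to absent from the whole matrix. H19 had 5 UMIs in 2 cells and Igf2 had 4 UMIs in 3 cells, with none in epithelial-like cells. Both fell short of the 20 UMIs asked of a gene for a ratio, which 5 of the 7 measured members reached. Of those 5, Meg3, Dlk1, Cdkn1c and Plagl1 were 4-fold or more higher in epithelial-like cells, and 8.48% of the 14471 features with 20 UMIs were too. With 3 UMIs set for its 0, Peg3 was 2.07-fold lower. That does not show whether it passed the fold of 4, as 15.1% of features did in that direction. Nothing is read from that count, since the members were chosen on it.

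**Figure D1:**
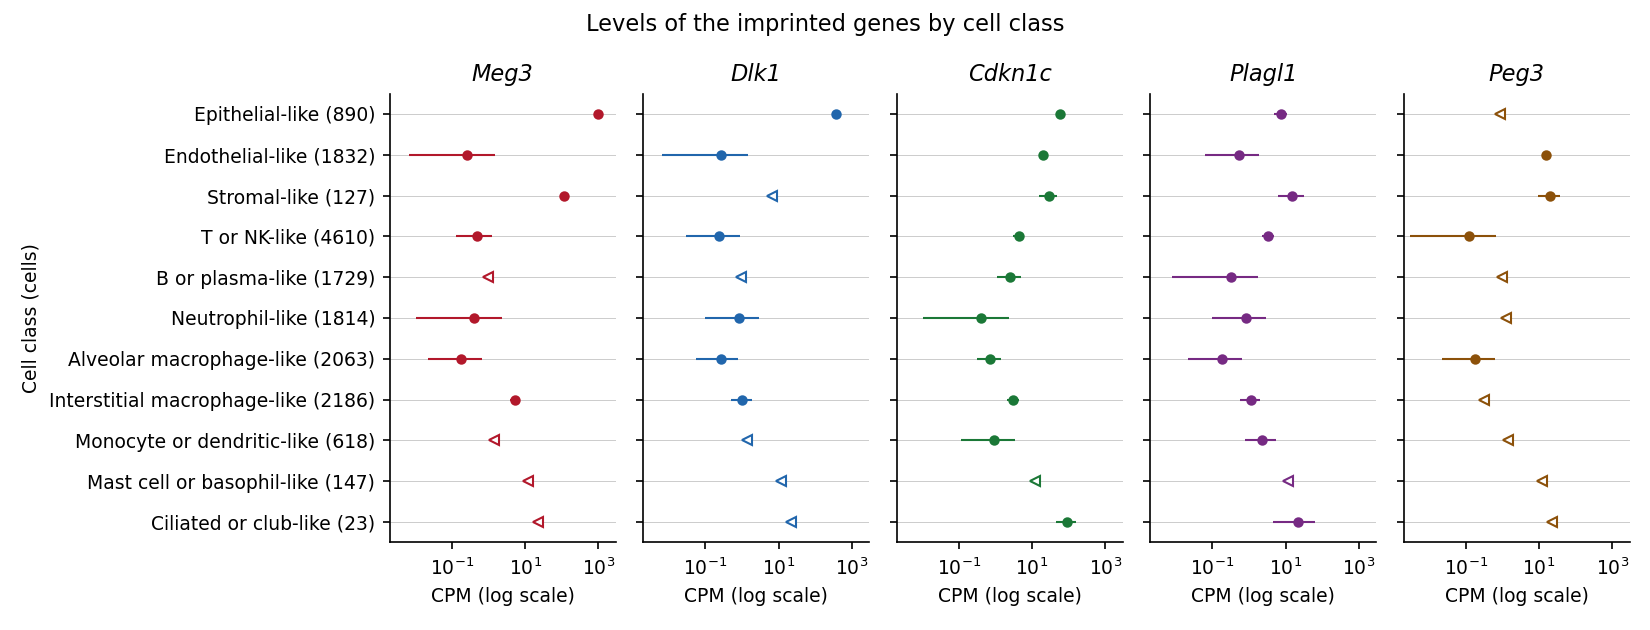
Level of each measured member with at least 20 UMIs (panels) in the 11 cell classes (rows, with cell numbers), in CPM on a log axis. Points are sums over cells with exact Poisson 95% intervals, and open triangles mark the level of 3 UMIs where none was counted; Meg3 at 977 CPM and Dlk1 at 376 CPM stand far to the right in epithelial-like cells, while Peg3 is seen in endothelial-like and stromal-like cells.

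The other genes of the Dlk1 and Meg3 cluster were examined next. Mirg and B830012L14Rik, noncoding RNAs that lie downstream of Meg3 (189 kb and 155 kb from its start), had 70 and 57 UMIs in epithelial-like cells, or 19.4 and 15.8 CPM. The other gated cells had no UMI of either. With 3 UMIs set for each 0, these RNAs were 270-fold and 220-fold higher in the epithelium. Rtl1 and Dio3, protein-coding genes of the same cluster, had 1 and 0 UMIs in epithelial-like cells. Of 27 features that start within 1 Mb of Meg3, 11 had 20 UMIs, and 5 of these were 4-fold or more higher: Dlk1, Meg3, B830012L14Rik, Mirg and Slc25a29, the last at -705 kb (toward lower coordinates) with a log2 ratio of 2.39 (1.41 to 3.32). Evl, at -986 kb, was lower, with a log2 ratio of -5.39. Nothing is read from the count of 5 beside the 8.48% of all features, because the members were chosen on this contrast and Mirg and B830012L14Rik reached 20 UMIs only through the epithelium. Around H19, 2 of 19 such features were higher, namely Cdkn1c, 883 kb away, and Phlda2, 925 kb away, and 5 were lower, namely Ifitm10, Ctsd, Tnni2, Lsp1 and Tspan32. The higher count is near the 8.48% of all features, and 15.1% of all features were lower by the same fold. Nothing is read from either count. Phlda2, an imprinted growth gene, was at 52.3 CPM against 0.168 CPM.

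**Figure D2:**
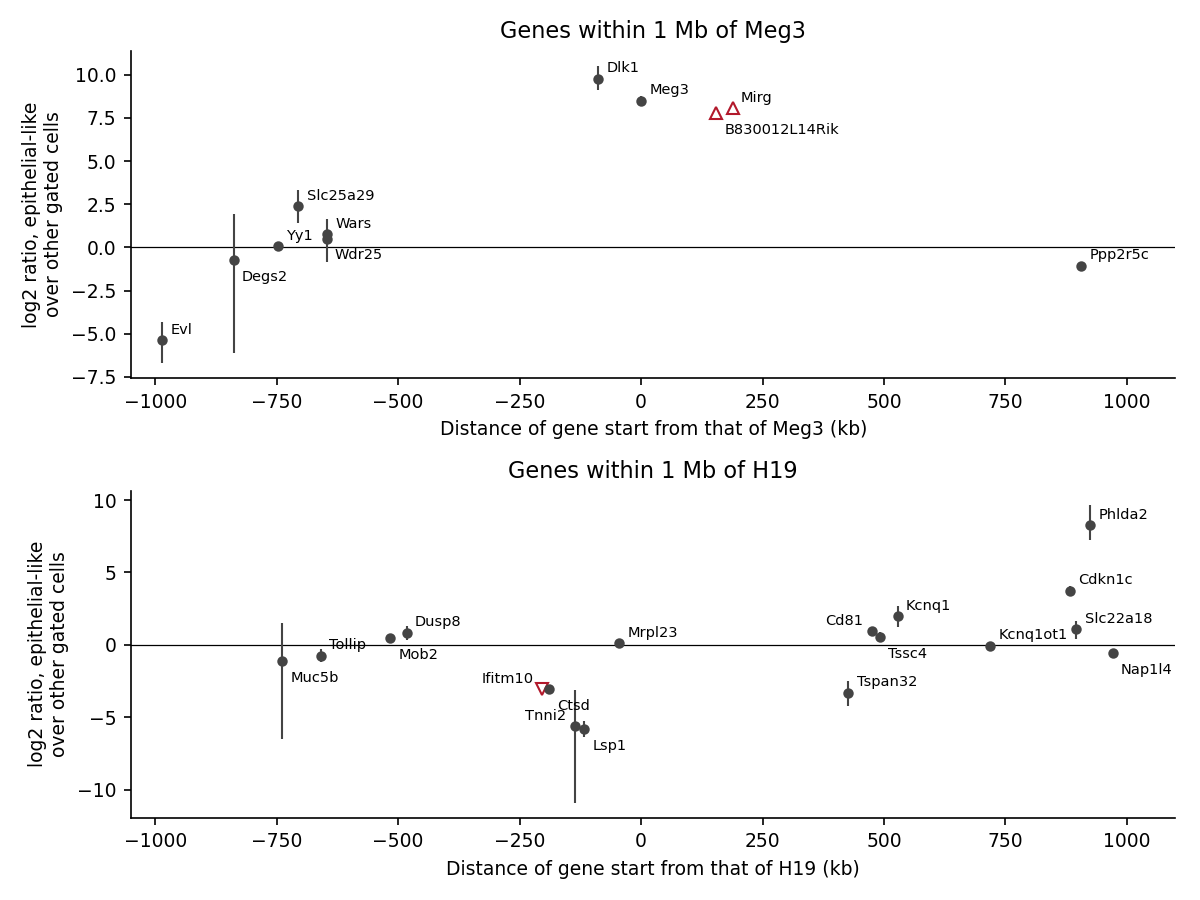
log2 ratio of CPM, epithelial-like over other gated cells, of features with at least 20 UMIs within 1 Mb of Meg3 (top) and of H19 (bottom), against the distance of their starts in kb. Bars are exact 95% intervals and open triangles are bounds where a class had no UMI; Dlk1, Meg3, B830012L14Rik and Mirg lie above 7 in the top panel, and Cdkn1c and Phlda2 are the highest in the bottom panel.

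Within the epithelium, Meg3 and Dlk1 followed the alveolar state. ATII cells make surfactant, and alveolar type I (ATI) cells form the thin gas-exchange surface. Scores over 13 ATII and 10 ATI markers split the 890 cells into 541 ATII-like, 156 ATI-like, 12 that passed both cuts and 181 that passed neither. The cuts were set after the scores were seen, and 102 and 93 cells lay within 0.05 of the ATII and ATI cuts. Ager, an ATI marker, read 718 CPM in the ATII-like state and 4550 CPM in the ATI-like state, and Sftpc, the ATII surfactant gene, 119291 and 29426 CPM. Both genes are in the lists that set the states, so these values are no separate check.

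Meg3 was at 1279 CPM (1236 to 1323) in ATII-like cells and 90.3 CPM (63.3 to 125) in ATI-like cells, a log2 ratio of ATI-like over ATII-like of -3.82 (-4.34 to -3.35). It was detected in 289 of the 541 ATII-like cells but in 11 of the 156 ATI-like cells. A single ATI-like cell, with scores of 0.388 (ATII) and 0.357 (ATI), held 15 of the 36 Meg3 UMIs of that state. Dlk1 was at 515 CPM (488 to 543) in ATII-like cells, with 1337 UMIs in 154 cells. It had no UMI in ATI-like cells (interval 0 to 9.26 CPM), which was 68.4-fold lower with 3 UMIs set for that 0. ATI-like cells were shallower, with a median of 2310 UMIs against 4635. Cdkn1c did not show this pattern: 54.3 CPM in ATII-like and 42.7 CPM in ATI-like cells gave a log2 ratio of -0.35 (-1.17 to 0.38), an interval that includes no difference. Plagl1 was at 8.09 and 7.53 CPM, with a log2 ratio of -0.10 (-2.49 to 1.64). Thus 2 of the 4 members with 20 UMIs in these states were 2-fold or more lower in ATI-like cells, as were 12.4% of 8514 features; nothing is read from the count, since Meg3 and Dlk1 were chosen for their level in ATII-like cells. The 181 cells of neither state had Meg3 at 273 CPM (232 to 319), Dlk1 at 40.2 CPM (25.5 to 60.3) and Cdkn1c at 97.9 CPM (74.0 to 127).

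**Figure D3:**
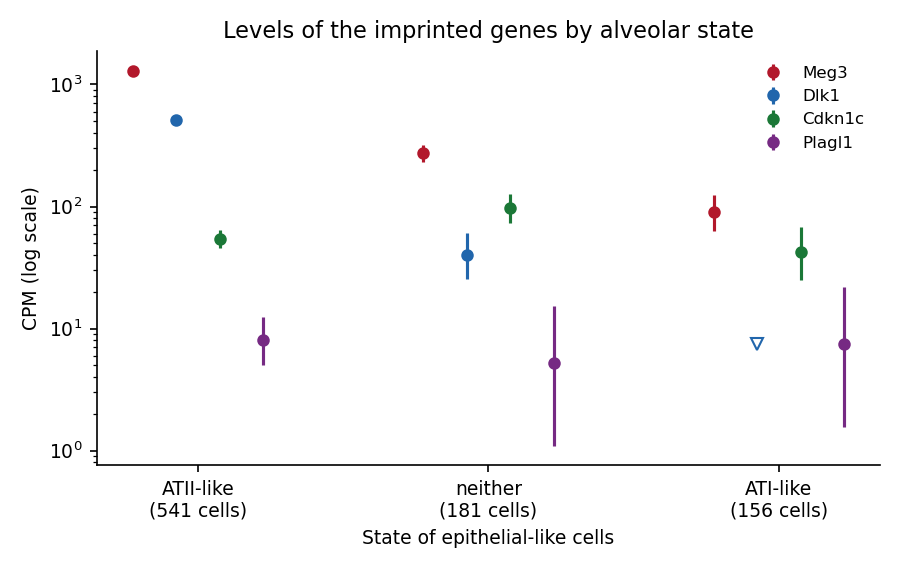
CPM (log axis) of 4 members in ATII-like cells, cells of neither state and ATI-like cells, with exact Poisson 95% intervals. The open triangle marks the level of 3 UMIs for Dlk1, which had none in ATI-like cells; Meg3 goes from 1279 to 90.3 CPM between ATII-like and ATI-like cells, and Cdkn1c from 54.3 to 42.7 CPM.

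Cells removed for gene number or mitochondrial share also held these RNAs: the 811 cells over the upper cut-offs had 821 Meg3 UMIs in 52 cells and 684 Dlk1 UMIs in 33 cells.

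Neither gene was spread evenly over the ATII-like cells. Meg3 had no UMI in 252 of them, yet 137 cells had 10 or more, up to 75 in a single cell. The 55 cells highest in Meg3, the top 10% of ATII-like cells, held 45.0% of its UMIs, and the 55 highest in Dlk1 held 75.3%. Among cells with a UMI, the median level of Meg3 was 2075 CPM, with quartiles of 835 and 3411 CPM. The Meg3-negative ATII-like cells were not markedly shallow, with a median of 4423 UMIs against 4745 in the positive ones. They had an ATII marker sum of 172369 CPM against 166480 CPM, and a cell cycle sum of 122 CPM (103 to 143) against 110 CPM (93.7 to 129). TdTomato was at 4737 CPM (4613 to 4862) in Meg3-negative and 6539 CPM (6406 to 6674) in Meg3-positive ATII-like cells. For Dlk1 the negative ATII-like cells were shallower, with a median of 4341 UMIs against 5424 in the positive ones. Their ATII marker sum was also lower, 164693 CPM against 178409 CPM. In the order in which the cells are listed, ATII-like cells with 10 or more Meg3 UMIs were rare at first and frequent in a long later stretch. Whether such stretches match mice or libraries was not tested. The mouse of origin of these ATII-like cells is not known, so differences between cells and differences between mice cannot be told apart.

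To compare detection at equal depth, each cell was thinned to 1000 UMIs, which left 859 of 890 epithelial-like cells. Meg3 was then found in 257 cells, 29.9% (26.9 to 33.1), and Dlk1 in 100 cells, 11.6% (9.57 to 13.98). Unthinned shares were 38.3% and 18.3%. In T or NK-like cells, taken as cells that should lack both genes (median 1601 UMIs before thinning), the thinned shares were 0.0715% and 0% of 4198 cells, the latter with an upper bound of 0.0878%. Cdkn1c was found in 5.82% (4.35 to 7.60) of thinned epithelial-like cells and 0.381% of T or NK-like cells, and Plagl1 in 0.466% and 0.143%.

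Dlk1 was found more often in cells that held Meg3. At 1000 UMIs, 66 of 257 Meg3-positive cells had a Dlk1 UMI, 25.7% (20.5 to 31.5), against 34 of 602 Meg3-negative cells, 5.65% (3.94 to 7.80). Within ATII-like cells alone the shares were 28.6% (22.8 to 35.0) of 227 cells and 10.3% (7.13 to 14.3) of 300 cells. Without thinning, 35.8% of Meg3-positive and 7.47% of Meg3-negative epithelial-like cells had Dlk1, and 11 Meg3-negative cells held more than 10 Dlk1 UMIs. Dlk1 thus occurred without Meg3 as well, and 219 Meg3-positive cells had no Dlk1 UMI. The maternal noncoding RNAs behaved differently: Mirg was seen in 49 and B830012L14Rik in 38 of the 341 Meg3-positive cells, and neither was seen in the 549 Meg3-negative cells, which allows a share of up to 0.670% (upper Clopper-Pearson bound). At 1000 UMIs, where Meg3 itself was missed more often, 1 of 602 Meg3-negative cells had a Mirg UMI. Cdkn1c was found in 5.06% (2.72 to 8.49) of thinned Meg3-positive and 6.15% (4.36 to 8.37) of Meg3-negative cells, and these intervals overlap.

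**Figure D4:**
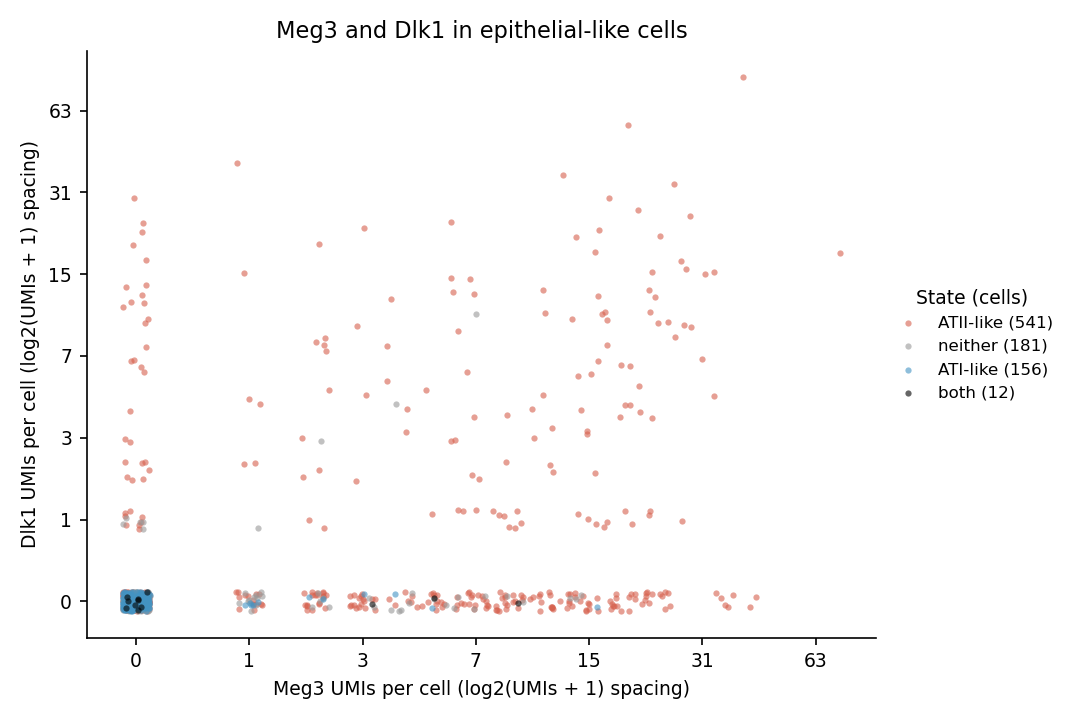
UMIs of Meg3 (x axis) and Dlk1 (y axis) in each of the 890 epithelial-like cells, spaced as log2(UMIs + 1) and jittered, with colors for the alveolar state. Cells with both genes are nearly all ATII-like, and cells with many Dlk1 UMIs and no Meg3 UMI lie along the left edge.

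The cells were also grouped by their Meg3 UMIs, without thinning. Dlk1 went from 138 CPM in the 549 cells without Meg3 to 1586 CPM in the 49 cells with 21 to 75 Meg3 UMIs. The share of cells with a Dlk1 UMI was 7.47%, 25.3%, 20.3%, 33.8%, 45.7% and 57.1% in cells with 0, 1 to 2, 3 to 5, 6 to 10, 11 to 20 and 21 to 75 Meg3 UMIs. Other values moved with Meg3 across these groups: the share of ATII-like cells was 45.9% and 100%, the median depth 3161 and 5049 UMIs, TdTomato 4942 and 7462 CPM, and Hopx, an ATI marker, 454 and 16.4 CPM. Their part in the co-detection was not tested beyond the thinned and ATII-like values above. Any part of the mouse of origin could not be tested.

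**Figure D5:**
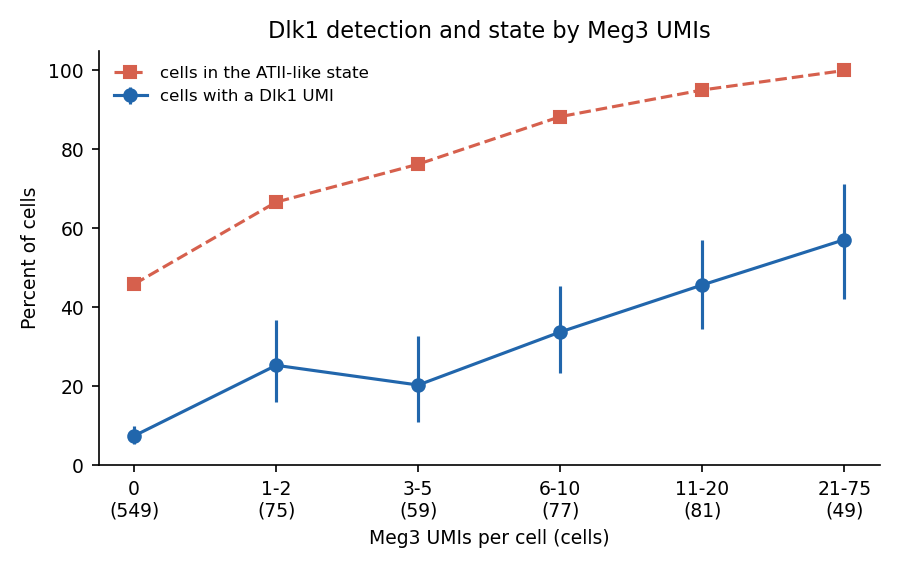
Percent of epithelial-like cells with a Dlk1 UMI (circles, exact 95% intervals) and percent in the ATII-like state (squares) by Meg3 UMIs per cell, without thinning, with cell numbers below each group. Cells with a Dlk1 UMI make up 7.47% of cells without Meg3 and 57.1% of those with 21 to 75 Meg3 UMIs, and ATII-like cells 45.9% and 100%.

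The genes closest to Meg3 and Dlk1 over thinned epithelial-like cells included ATII markers. By Pearson correlation of log1p UMIs over 859 cells, Meg3 was most like Dmkn (0.40), Scd1 (0.38), Cxcl15 (0.37), Slc34a2 (0.35) and Dlk1 (0.32), and Dlk1 most like Lcn2 (0.36), Meg3 (0.32), Rnase4 (0.32), Cxcl15 (0.31) and Lyz2 (0.28). These cells share a library pool and a state, and counts are sparse, so the values are a description. Within the 527 thinned ATII-like cells the closest genes to Meg3 were Dmkn (0.33), TdTomato (0.27), Dlk1 (0.27), mt-Co1 (0.21) and Cxcl15 (0.21), and those to Dlk1 were Lcn2 (0.30), Rnase4 (0.27), Meg3 (0.27), Itih4 (0.27) and Lrg1 (0.23), so Scd1, Slc34a2 and Lyz2 were no longer among them. Cxcl15, Slc34a2 and Lyz2 belong to the ATII marker list. Over the 11 class levels, Meg3 was most like Il33, Arhgap44, Matn4, Ndnf and Ccdc141 (0.97 to 0.99), and Dlk1 most like Lrp2, Krt23, Hc, Krtap17-1 and Sprr1a (all 1.00 when rounded); these genes share with the members a high level in epithelial-like cells.

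Other imprinted genes did not move as a block. Of 52 listed genes, 51 had a row and 32 had 20 UMIs, of which 11 were 4-fold or more higher in epithelial-like cells, 4 were lower and 17 were neither, 1 of which (Ndn, with no UMI in the epithelium) had no ratio. The higher share, 34.4%, stands beside 8.48% of all features, and the median log2 ratio, 0.96, beside -0.22. The lower count stands beside 15.1% of all features. Nothing is read from these shares, because Mirg, Phlda2, Slc38a4, Cobl, Peg10 and Rasgrf1 reached 20 UMIs only with the epithelium counted. Ppp1r9a, an actin-binding scaffold, was at 106.9 CPM against 2.42 CPM, and Nnat, a small membrane protein, at 70.3 against 1.99 CPM. Slc38a4, an amino acid transporter, was at 16.9 against 0.0957 CPM, and Cobl, an actin nucleator, at 32.1 against 0.263 CPM. Igf2r, the receptor that clears Igf2, was at 50.1 against 11.8 CPM, and Osbpl5 at 30.2 against 4.40 CPM. Peg10, Airn, Mirg, Phlda2 and Rasgrf1 made up the rest of the higher genes. Some of these were higher in a single other class than in the epithelium. Mast cell or basophil-like cells had Osbpl5 at 58.6 CPM, ciliated or club-like cells Cobl at 36.8 CPM, and endothelial-like cells Airn at 16.3 CPM. Stromal-like cells had Igf2r at 48.7 CPM, close to the epithelial level. Mest, Asb4, Dcn and Gatm were lower. Dcn, a matrix proteoglycan and one of the stromal markers of the gate, was at 4288 CPM in stromal-like cells. Gnas (624 against 480 CPM), Cd81 (333 against 175 CPM), Kcnq1ot1 (132 against 137 CPM), H13 (117 against 88.9 CPM), Ube3a (86.9 against 77.8 CPM) and Commd1 (57.0 against 57.3 CPM) were high in the epithelium but within 4-fold of the other cells.

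Pathways tied to single members were examined by the same folds, which 8.48% of all features passed upward and 15.1% downward. In the IGF list, for Igf2, 14 genes had 20 UMIs, with 2 (14.3%) higher (Igf2r and Irs1, an adaptor of the receptor, at 13.3 against 0.574 CPM) and 4 lower (Igf1, Igfbp3, Igfbp4 and Igf2bp2). Igf1 had no UMI in epithelial-like cells and was at 584 CPM in stromal-like cells. Igfbp7 (238 against 267 CPM) and Irs2 (106.9 against 151 CPM) were neither. Igf1r, the signaling receptor, was at 25.5 against 38.8 CPM. In the Notch list, for Dlk1, 14 genes had 20 UMIs, with 1 (7.14%) higher (Hes1, a Notch target, at 278 against 58.3 CPM) and 6 lower (Dll1, Dll4, Jag2, Hey1, Lfng and Mfng). Heyl, with no UMI in the epithelium, had no ratio. Hes1 was also higher in the ATI-like state, 522 CPM, than in the ATII-like state, 229 CPM. Among 7 other cyclin-dependent kinase inhibitors, for Cdkn1c, 1 (14.3%), Cdkn2b, was higher, at 50.7 against 4.45 CPM, Cdkn2d was lower, at 9.69 against 51.4 CPM, and 5 were neither, among them Cdkn1a (460 against 403 CPM) and Cdkn2a (54.5 against 14.98 CPM). In the fetal or progenitor lung list, 7 genes had 20 UMIs and 3 (42.9%) were higher, namely Sox9 (15.8 against 0.933 CPM), Etv4 (8.03 against 0.287 CPM) and Etv5 (133 against 6.20 CPM, also an ATII marker), with none shown to be lower; Sox11, with no UMI in the epithelium, has only a bound. Id2 (155 against 211 CPM) and Tgfbi (142 against 252 CPM) were neither. Some of the higher genes of these lists were higher still in a single other class. Stromal-like cells had Irs1 at 17.7 CPM, Sox9 at 35.4 CPM and Etv4 at 11.1 CPM, and ciliated or club-like cells had Hes1 at 737 CPM. Etv4 reached 20 UMIs only with the epithelium counted.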

How the data were processed

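The authors sequenced RNA of single viable tumor cells by the 3′ droplet method. The deposited values are whole UMI counts per gene and cell, aligned to mm10 with GFP and TdTomato added, and made with Cell Ranger (version 3.0.2 in the matrix header); a count is 1 molecule, and no normalization had been applied. Cells had a median of 1960 UMIs. Cells with at least 200 genes and at or below the 98th percentile of genes (2713) and of mitochondrial share (13.4%) were kept, which left 19488 cells (the study names percentile cut-offs without their values). Its removal of tdTomato-positive cells outside the epithelium was not applied.

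Marker scores gated cells into classes: at least 3 markers and a score 1.5 times the next highest, otherwise ungated, which also served for doublets. State cuts were 0.45 (ATII) and 0.3 (ATI). The scoring and cuts were chosen after the data were seen, and names are rebuilt here. The members and lists were chosen with earlier results of these data known. Ratios needed 20 UMIs. A count of 0 was set to 3 UMIs and gives a bound, which leaves out the counting error of the other count. The "higher" and "lower" calls are folds of 4 between classes and 2 between states, not tests. No test was run, since the matrix is 1 sample. Ratio intervals were tried only on simulated Poisson counts, the model they assume, so this cannot show how they hold for unevenly spread UMIs. Over epithelial-like cells the variance of UMIs was 15.1 times the mean for Meg3 and 19.0 times for Dlk1. Gene coordinates come from GENCODE vM21 on mm10 and promoters from RefSeq. Genes named from the lists are those at 50 CPM or more in epithelial-like cells (at most 8 a list) or past the fold of 4, and the 5 most correlated with Meg3 and with Dlk1; Ndn, Heyl, Sox11, the genes closest within ATII-like cells, the neighbors of Meg3 and H19, Igf1r, Stk11, TdTomato and the marker genes were named after their values were seen. Scripts ran in Python 3.11.15 with scipy 1.17.1 and scanpy 1.11.5. A further allele that all mice shared is not reported here.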

Additional observations from a re-analysis of the deposited data

How the results depend on the processing

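All values rest on 1 pooled sample, so the intervals cover counting error only and leave out the spread between 4 mice. Depth limits H19, Igf2, Peg3 and Plagl1, where a level under 0.830 CPM in the epithelium cannot be seen. No paired analysis was possible because the matrix carries no replicate or mouse for a cell. Alternatives tried were 500 genes as the lower filter, upper cut-offs dropped, a stricter gate (4 markers and a ratio of 2), classes from 15 clusters made without the members, TdTomato-positive cells alone, Scrublet doublets removed, the mean over cells, 500 or 2000 UMIs (or all) per cell in place of 1000, a fold of 2 and a minimum of 100 UMIs. Leaving out cells high in a gene, asking no score ratio, leaving out 23 other cells of an epithelial score over 0.25, moving both state cuts by 0.05 and using ATII-like cells alone were chosen after seeing the data. Scrublet marked 44 cells, 0.226%, a share at which it is taken not to have worked, and none was epithelial-like. Of 224 alternative values, 193 stayed within the interval, 1 log2 unit for bounds or 1.5 times for the count, 31 moved and 0 reversed. Of the 31, 24 fell on values of Meg3, Dlk1 or Cdkn1c or on the count of other imprinted genes. The causes of those moves were not tested. Some values could hardly move, since Scrublet removed no epithelial-like cell, and H19 and Igf2 had no epithelial UMI as reported. The 193 is therefore not a measure of stability.

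The Meg3 level was 924 CPM with no upper cut-offs, 905 CPM as the mean over cells, 876 CPM without its 10 highest cells and 852 CPM with no score ratio asked. The Dlk1 level was 419, 290, 277 and 327 CPM under the same settings, and the Cdkn1c level without its 10 highest cells was 46.9 CPM. The log2 ratio of epithelial-like over other cells was 9.04 for Meg3 with clusters, 9.34 without the 23 cells and 8.93 as the mean over cells, where Dlk1 gave 9.09 and Cdkn1c 3.45. Thinned to 500 UMIs, to 2000 UMIs and not thinned, the share of cells with Meg3 was 23.1%, 39.7% and 38.3%, and with Dlk1 7.98%, 16.3% and 18.3%. Among Meg3-positive cells the share with Dlk1 was 18.0% at 500 UMIs and 35.8% unthinned, and among Meg3-negative ATII-like cells it was 10.3%. With no upper cut-offs Peg3 was no longer at 0, and its log2 ratio was -3.10 (-8.42 to -0.58). With a minimum of 100 UMIs, 7 of 26 other imprinted genes were higher.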
